A study of Mus musculus with 9 samples.

Results

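The proteasome genes described here are those whose symbol begins with Psma, Psmb, Psmc, Psmd, Psme, Psmf or Psmg followed by a digit, on probe sets annotated to a single gene, with the probe set of highest mean signal taken for each gene. The rule found 50 genes among the 19938 genes with such a probe set. Of these, 49 passed the filter on low signal (a log2 signal of at least 4 on at least 3 of the 9 arrays) and were tested with the other genes, 17324 in all. Only Psmg2 did not, with log2 signals between 3.45 and 4.03 on the 9 arrays. RNA was measured in mouse eggs (oocytes arrested at metaphase II, the stage at which they are ovulated) of 3 genotypes. Dicer knockout eggs lacked Dicer, which cuts microRNA hairpins and long double-stranded RNA into small RNAs. Dgcr8 knockout eggs lacked Dgcr8, which is needed for the earlier cut of primary microRNA transcripts and not for small RNAs made from long double-stranded RNA. Wild-type eggs were the control for both. All groups are given as strain C57BL/6, with 3 arrays each that the labels call biological replicates. All females were injected with pregnant mare serum gonadotropin (7.5 IU), which makes follicles grow, followed by human chorionic gonadotropin (7.5 IU), which triggers ovulation, and eggs were taken 14 to 16 h after the second hormone (16 h in the source labels) and freed of cumulus cells with hyaluronidase. The sources used here do not give the age of the females, the way the alleles were deleted or the number of eggs per array.

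The proteasome is the protease that degrades proteins tagged with ubiquitin. Its barrel, the 20S core, stacks rings of alpha subunits (Psma genes), which gate entry, on rings of beta subunits (Psmb genes), some of which carry the catalytic sites; the 19S particle on its ends binds, unfolds and feeds in the tagged proteins through its ATPases (Psmc genes) and its other base and lid subunits (Psmd genes). Oocytes depend on it to complete meiosis, when cyclin B and securin are degraded, and to remove maternal proteins after fertilization.

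Each knockout had less RNA of the gene it targets. Dicer1 had a log2 signal of 10.7 ± 0.13 in Dicer knockout eggs and 11.7 ± 0.01 in wild-type eggs (SD, n = 3 each), a change of -0.95, and Dgcr8 was at 5.71 ± 0.26 in Dgcr8 knockout eggs and 8.96 ± 0.10 in wild-type eggs (SD, n = 3 each), a change of -3.24. Dgcr8 was also lower in Dicer knockout than in wild-type eggs, by -0.50 with groups that did not overlap. That change had a limma adjusted p of 0.0644 and fell under 0.05 in 4 of 19 alternative analyses. Dicer1 changed by 0.01 in Dgcr8 knockout eggs. Where the probes lie relative to the deleted parts is not stated in the labels. The 15 oocyte markers measured, among them Zp1, Gdf9 and Mos, had group means between 10.5 and 12.5 in all 3 genotypes. Genes with a limma Benjamini-Hochberg adjusted p under 0.05 over all genes tested are referred to as called. In Dicer knockout against wild-type eggs Zp2, a zona pellucida protein, was called higher (0.40, adjusted p 0.0199), Kit, a receptor of the oocyte surface, was called lower (-0.36, adjusted p 0.00548), and 11 of the 15 had a change above 0. Their median difference from the wild-type mean was 0.09, 0.07 and 0.03 (log2) on the 3 Dicer knockout arrays, beside 0.10, 0.06 and 0.05 for the 49 tested proteasome genes. Over all genes tested, 4.87% were called higher and 6.47% lower in this comparison. Of markers of other cells, 0 of 16 cumulus and granulosa genes tested passed the test (3 had an unadjusted p under 0.05), and 1 of 9 oviduct markers did, Myh11 (a smooth muscle myosin), which was lower (-0.46, adjusted p 0.00567), with 7 of the 9 below 0. Of the 9 immune and blood markers, 8 had a change above 0 and 2 were called higher, C1qb (a complement component, 8.71 in Dicer knockout and 7.09 in wild-type eggs) and Cd68 (a macrophage marker, 7.40 in Dicer knockout and 6.44 in wild-type eggs). The log2 summed level of the 9 immune markers was 9.59 to 9.96 on the Dicer knockout arrays, 8.89 to 8.99 on the Dgcr8 knockout arrays and 8.77 to 8.97 on the wild-type arrays. Genes of high signal weigh most in such a sum. The median difference of the 9 markers from the wild-type mean was 0.03, 0.05 and 0.33 on Dicer knockout replicates 1, 2 and 3. The marker below 0 was Ptprc, the pan-leukocyte gene (-0.04, adjusted p 0.836), and those above 0 but not called ranged up to Lyz2 (0.57, adjusted p 0.589), with C1qa at 0.18 (adjusted p 0.353) and its groups apart. The part of these markers in the results below was not tested. Signals are relative between arrays, and a change in some eggs of a sample and a smaller one in all of them cannot be told apart.

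In Dicer knockout eggs, 9 of the 49 tested proteasome genes were called higher than in wild-type eggs and 0 were called lower. They were the 20S alpha subunits Psma2, Psma4 and Psma5, the 20S beta subunits Psmb3, Psmb4, Psmb5 and Psmb6, and the assembly chaperones Psmd9 and Psmg4. The increases ran from 1.17-fold for Psma2 to 2.12-fold for Psmb5. That is 18.4% of the tested proteasome genes, beside 11.3% of all genes called in either direction, 4.87% called higher and 6.47% called lower. At an unadjusted p under 0.05, 14 proteasome genes were higher and 2 lower, where 9.40% of all genes were higher and 14.3% lower. The 3 Dicer knockout arrays all lay above the 3 wild-type arrays in 12 proteasome genes, where this held for 10.0% of all genes, and all below them in 4, where it held for 16.1% of all genes. The log2 change was above 0 in 29 of the 49, where it was above 0 in 42.1% of all genes, and its median was 0.08 over the proteasome genes and -0.03 over all genes tested. Of the called genes, the other probe set of Psma5 and that of Psmb3 were not called (adjusted p 0.0805 and 0.193 when every probe set was tested). The other probe set of Psmc1 was called lower (adjusted p 0.00724). Probe sequences are not given, so which probe set reads the gene itself was not examined. By number, the Psma5, Psmb3 and Psmc1 probe sets used stand among those of genes on chromosomes 10, 16 and 16. The other probe sets stand among those of chromosomes 3, 11 and 12, where RefSeq places these genes. The calls of Psma5 and Psmb3 thus rest on probe sets numbered with another chromosome. In Dgcr8 knockout eggs none of the 49 was called against wild-type. The plot of log2 changes by role places the calls in the core rings and the chaperones. On the probe sets used, no call fell among the 17 subunits of the 19S particle that the symbol rule holds.

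**Figure D1:**
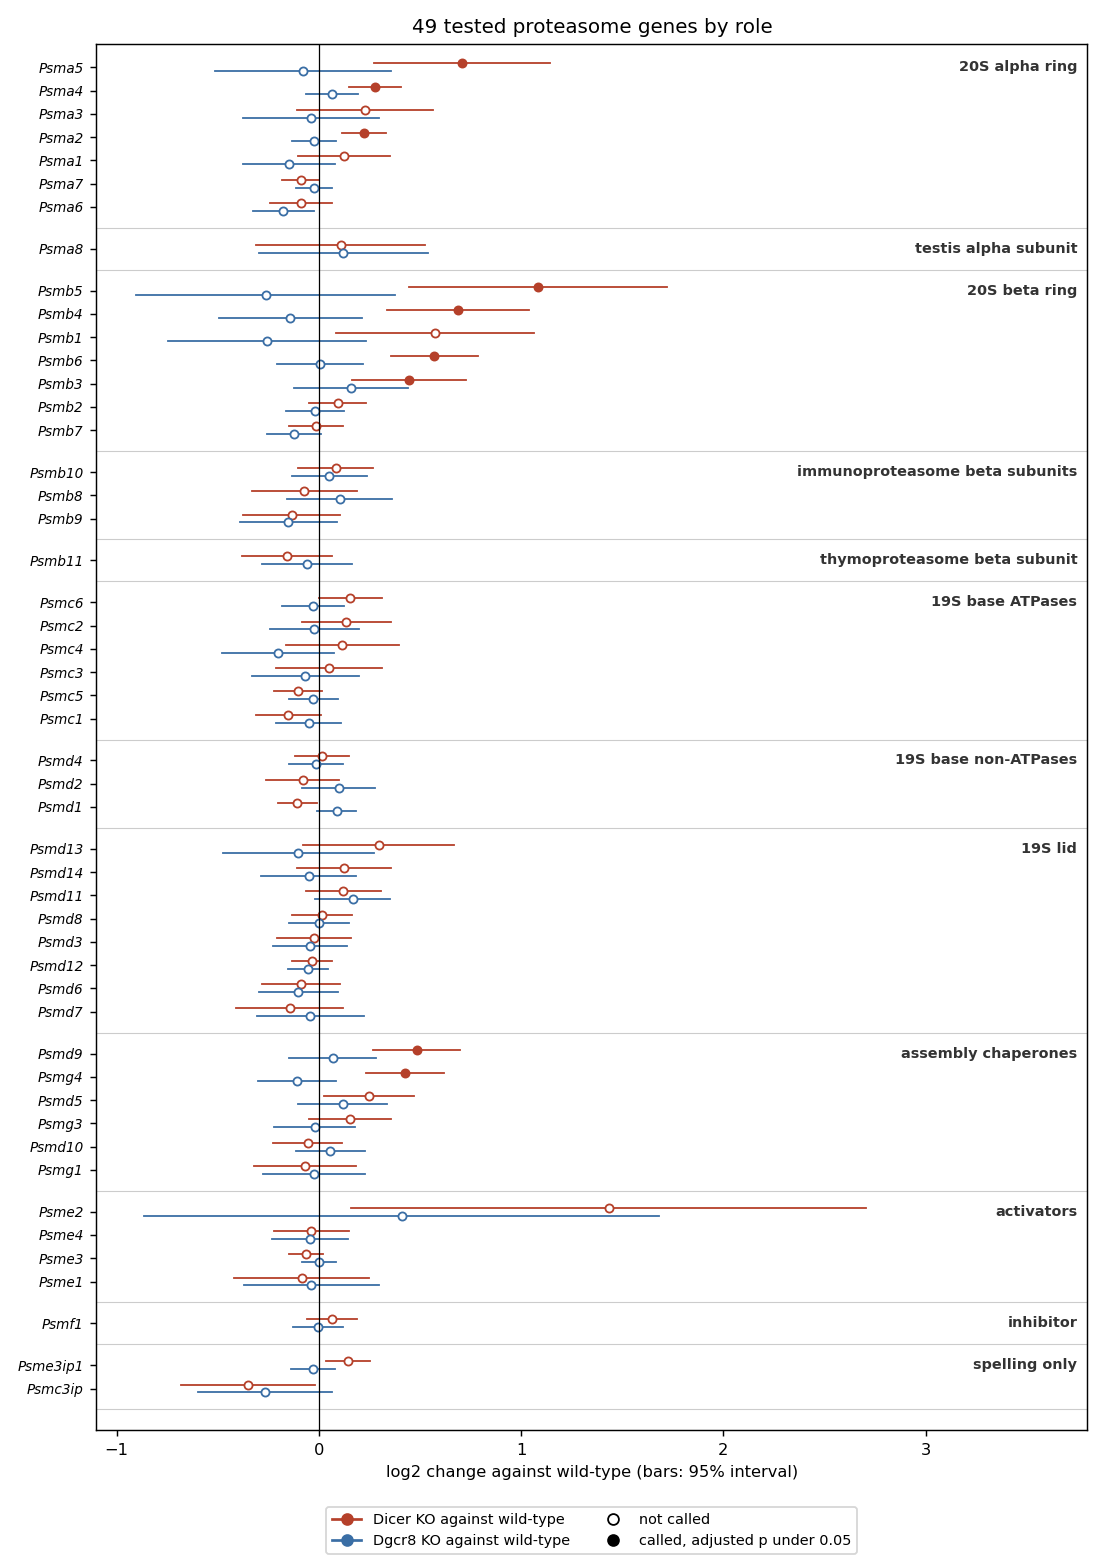
Log2 change against wild-type eggs for each of the 49 tested proteasome genes, grouped by role, in Dicer knockout eggs (red) and Dgcr8 knockout eggs (blue); points are the differences of means of 3 arrays, bars their 95% intervals from limma, and filled points those with an adjusted p under 0.05. All 9 filled points are red, lie right of 0 and belong to the 20S alpha ring, the 20S beta ring or the assembly chaperones.

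The promoters are shown for Psmb5, Psmb6 and Psmd9 because these 3 of the 9 called genes hold the letters TGACNNNGC, the core of the antioxidant response element, a sequence read by Nfe2l1, the transcription factor that raises proteasome genes when the proteasome is inhibited. Psmg4 is shown as a called gene without them. Each line gives the 250 bases before the start in the RefSeq promoter table (build GRCm38.p6), 5′ to 3′ on the strand of the gene, and capitals mark the match. For Psmb5, Psmd9 and Psmg4 this is the start of the gene span in RefSeq, whereas the Psmb6 span begins earlier, at 70525324, so that the last 33 bases of its window, the match among them, lie inside the span. The windows are chr14:54617996-54618245, - strand, for Psmb5, chr11:70525107-70525356, + strand, for Psmb6, chr5:123227940-123228189, + strand, for Psmd9, and chr13:34162714-34162963, + strand, for Psmg4.
Psmb5: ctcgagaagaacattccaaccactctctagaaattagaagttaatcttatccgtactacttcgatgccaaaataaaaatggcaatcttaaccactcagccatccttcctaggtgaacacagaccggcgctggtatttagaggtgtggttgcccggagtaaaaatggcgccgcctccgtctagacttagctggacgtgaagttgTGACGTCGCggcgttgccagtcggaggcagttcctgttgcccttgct
Psmb6: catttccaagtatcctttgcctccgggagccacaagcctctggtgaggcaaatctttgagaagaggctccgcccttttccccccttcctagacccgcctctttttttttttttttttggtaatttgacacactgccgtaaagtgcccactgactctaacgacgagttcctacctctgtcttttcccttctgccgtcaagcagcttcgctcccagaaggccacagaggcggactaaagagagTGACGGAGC
Psmd9: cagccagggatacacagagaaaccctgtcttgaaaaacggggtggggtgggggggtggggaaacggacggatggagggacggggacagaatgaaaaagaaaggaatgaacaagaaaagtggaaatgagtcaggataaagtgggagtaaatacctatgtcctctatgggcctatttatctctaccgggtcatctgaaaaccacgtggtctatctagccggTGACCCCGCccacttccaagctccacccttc
Psmg4: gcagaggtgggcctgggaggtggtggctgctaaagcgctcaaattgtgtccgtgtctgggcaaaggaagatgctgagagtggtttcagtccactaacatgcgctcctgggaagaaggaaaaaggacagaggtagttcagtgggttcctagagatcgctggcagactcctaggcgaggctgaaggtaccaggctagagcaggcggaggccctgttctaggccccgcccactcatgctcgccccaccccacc
Counted back from the start in the promoter table, the match spans -47 to -39 in Psmb5 (TGACGTCGC), -9 to -1 in Psmb6 (TGACGGAGC) and -31 to -23 in Psmd9 (TGACCCCGC). RefSeq promoters matched 42 of the 50 proteasome genes, with 46 promoters in all. Searched on both strands, TGACNNNGC stood in 5 of the 46 (10.9%) and in 10.2% of the 32841 mouse promoters of the same length, so the proteasome promoters as a whole held it about as often as any promoter. It stood in 3 of the 9 promoters of the called genes (33.3%), in 2 of 12 20S core promoters and in 2 of 15 19S promoters. CCAAT was in 22.2% of the called promoters, 34.8% of the proteasome promoters and 33.9% of all. GGGCGG (the GC box) was in 55.6% of the called, 52.2% of the proteasome and 32.7% of all promoters. TGACGT (the core of the cAMP response element, which in Psmb5 overlaps the match shown) was in 22.2% of the called, 8.7% of the proteasome and 6.47% of all promoters. A match describes letters only, and binding was not measured.

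Of the beta ring, which holds the catalytic subunits, 4 of 7 genes were called higher in Dicer knockout eggs, where 4.87% of all genes were. The median log2 change over the ring was 0.57. Psmb6, the caspase-like catalytic subunit, had log2 signals of 10.67, 10.43 and 10.30 in Dicer knockout eggs, 9.94, 9.95 and 9.82 in Dgcr8 knockout eggs and 10.03, 9.86 and 9.79 in wild-type eggs. Every Dicer knockout array lay above every other array, with Dgcr8 knockout and wild-type arrays overlapping. The log2 change from wild-type was 0.57 ± 0.10 (SE), or 1.49-fold, with a limma adjusted p of 0.00392, and the call held in all 19 alternative analyses that kept this threshold. Psmb5, the chymotrypsin-like catalytic subunit, had 9.29, 9.23 and 8.33 in Dicer knockout eggs, 7.43, 7.54 and 7.83 in Dgcr8 knockout eggs and 8.29, 7.97 and 7.32 in wild-type eggs. The lowest Dicer knockout array, replicate 3, stood just above the highest wild-type array, and both groups were spread by about a log2 unit. Its change was the largest of the called members, 1.09 ± 0.29 (log2, SE; 2.12-fold; limma adjusted p 0.0366). That call was lost without any one of wild-type replicates 2 and 3, the 3 Dgcr8 knockout arrays, which enter the shared estimate of spread, or Dicer knockout replicates 1 and 2, with adjusted p between 0.0504 and 0.13 and changes between 0.82 and 1.14. It was also lost with median centring (adjusted p 0.0559) and in a fit of only the 2 groups compared (adjusted p 0.097). Psmb7, the trypsin-like catalytic subunit, averaged 10.80 ± 0.10 in Dicer knockout eggs and 10.81 ± 0.03 in wild-type eggs (SD, n = 3 each), a log2 change of -0.01 (95% interval -0.15 to 0.12, limma adjusted p 0.946). The 3 catalytic subunits of the standard core thus had changes of 1.09, 0.57 and -0.01.

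Among the structural beta subunits, Psmb4 had 10.37, 10.18 and 10.14 in Dicer knockout eggs, 9.39, 9.25 and 9.57 in Dgcr8 knockout eggs and 9.73, 9.77 and 9.13 in wild-type eggs. The groups did not overlap, although wild-type replicate 3 stood well below the other wild-type arrays. The change was 0.69 ± 0.16 (log2, SE; 1.61-fold; limma adjusted p 0.0196) and was not called without Dicer knockout replicate 1 (0.62, adjusted p 0.0773) or in a fit of only the 2 groups compared (adjusted p 0.0556). Psmb3 had 9.15, 9.03 and 9.25 in Dicer knockout eggs, 8.93, 8.83 and 8.81 in Dgcr8 knockout eggs and 8.49, 9.01 and 8.60 in wild-type eggs. Its lowest Dicer knockout array and highest wild-type array differed by only 0.02, and the call (0.44 ± 0.13, log2, SE; adjusted p 0.0494) sat at the threshold. It was lost without any single array other than wild-type replicate 2, with adjusted p between 0.0523 and 0.166, and under 9 alternatives that kept every array (0.0534 to 0.116), and the other probe set of the gene gave 0.26 (adjusted p 0.193). Psmb1 had a change of similar size that did not pass, with 9.15, 8.81 and 8.33 in Dicer knockout eggs against 8.35, 8.29 and 7.94 in wild-type eggs. Replicate 3 of the Dicer knockout fell inside the wild-type range, and the change of 0.57 ± 0.22 (log2, SE; adjusted p 0.140) was called without that array (0.79, adjusted p 0.0386). Psmb2 changed by 0.09 (95% interval -0.05 to 0.24, adjusted p 0.446).

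The alpha ring had 3 of 7 genes called higher in Dicer knockout eggs, beside 4.87% of all genes, and a median log2 change of 0.22. Psma2 had 11.43, 11.43 and 11.50 in Dicer knockout eggs, 11.19, 11.19 and 11.24 in Dgcr8 knockout eggs and 11.24, 11.31 and 11.13 in wild-type eggs. The Dicer knockout arrays lay above all others with little spread. The change was small, 0.22 ± 0.05 (log2, SE; adjusted p 0.0144), and missed the threshold when wild-type replicate 3 was left out (0.18, adjusted p 0.052), after quantile normalization (0.15, adjusted p 0.0678), with median centring (adjusted p 0.0512) and with eBayes without trend and robust settings (adjusted p 0.0663). Psma4 had 10.66, 10.73 and 10.81 in Dicer knockout eggs, 10.49, 10.45 and 10.62 in Dgcr8 knockout eggs and 10.45, 10.50 and 10.42 in wild-type eggs. Here too the Dicer knockout arrays stood apart from both other groups, by 0.28 ± 0.06 against wild-type (log2, SE; adjusted p 0.0127), and again the exception was wild-type replicate 3, without which the adjusted p was 0.0568. Psma5 had 10.83, 10.94 and 10.65 in Dicer knockout eggs, 9.88, 9.87 and 10.31 in Dgcr8 knockout eggs and 10.31, 10.38 and 9.60 in wild-type eggs. The groups were apart, with wild-type replicate 3 far below the other wild-type arrays. The change of 0.71 ± 0.20 (log2, SE; 1.63-fold; adjusted p 0.0443) was lost without any single array other than wild-type replicate 2 or Dgcr8 knockout replicate 3, with adjusted p between 0.0544 and 0.12 and a change of 0.46 without wild-type replicate 3. It was lost as well under 7 alternatives that kept every array (adjusted p 0.0521 to 0.0852). The other Psma5 probe set gave 0.47 (adjusted p 0.0805).

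The other alpha genes were not called. Psma3 changed by 0.23 ± 0.15 (log2, SE; adjusted p 0.431), with a further pair of probe sets at 0.24 and 0.22, and Psma1 by 0.12 ± 0.10 (adjusted p 0.557). Psma6 and Psma7 had changes of -0.09 each (adjusted p 0.514 and 0.220). Psma7, which had the highest mean signal of the ring, averaged 11.43 ± 0.07 in Dicer knockout eggs and 11.52 ± 0.02 in wild-type eggs (SD, n = 3 each) and was called lower after quantile normalization (-0.16, adjusted p 0.0298), the scaling that also called Psmd1 and Psme3 lower.

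**Figure D2:**
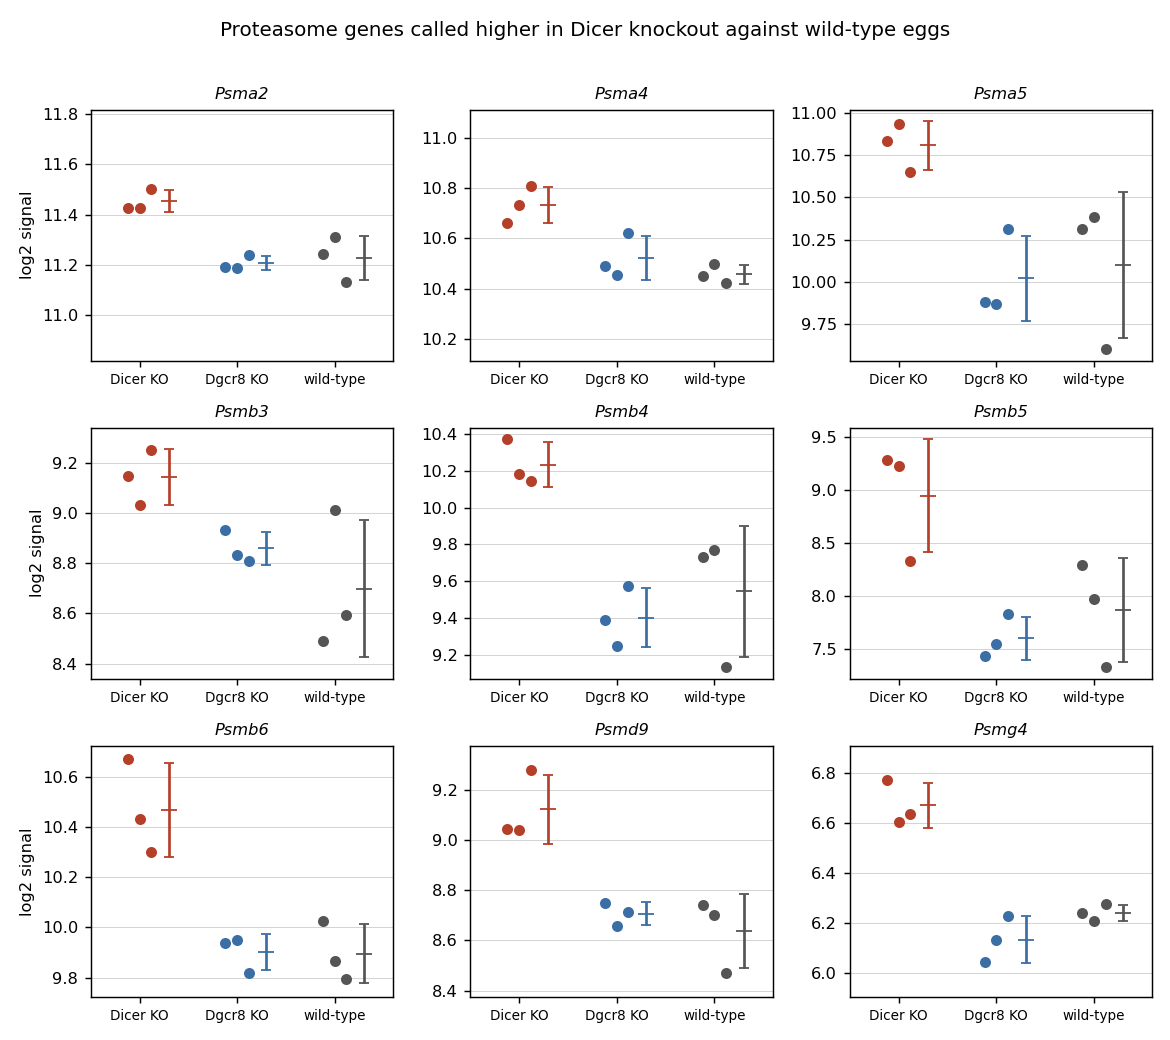
Log2 signal on each array for the 9 proteasome genes called higher in Dicer knockout against wild-type eggs. Points are the 3 arrays of a genotype in replicate order, bars the mean ± SD, and each panel has its own axis; in every panel the 3 Dicer knockout points lie above the 3 wild-type points, by a margin of 0.02 in Psmb3 and 0.04 in Psmb5.

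Assembly chaperones build the core and the base and then leave them. They had 2 of 6 tested genes called higher, beside 4.87% of all genes, and a median log2 change of 0.20. Psmd9, a chaperone of the ATPase ring, had 9.04, 9.04 and 9.28 in Dicer knockout eggs, 8.75, 8.66 and 8.71 in Dgcr8 knockout eggs and 8.74, 8.70 and 8.47 in wild-type eggs. Its Dicer knockout arrays all lay above both other groups, and the change from wild-type was 0.48 ± 0.10 (log2, SE; 1.4-fold; adjusted p 0.00986). Psmg4, which works with Psmg3 in assembling the alpha ring, had 6.77, 6.60 and 6.63 in Dicer knockout eggs, 6.04, 6.13 and 6.23 in Dgcr8 knockout eggs and 6.24, 6.21 and 6.27 in wild-type eggs. The groups were again apart, and the change was 0.43 ± 0.09 (log2, SE; 1.35-fold; adjusted p 0.0101). Psmb6, Psmd9 and Psmg4 were the only called members whose call against wild-type held in all 19 of these alternatives. Psmg4 had low signals, near those of Psmb9 (6.20 to 6.64 over the 9 arrays), and whether it stood above background was not tested. Psmg3, the partner of Psmg4, changed by 0.15 ± 0.09 (adjusted p 0.360), and Psmd5, another chaperone of the ATPase ring, by 0.25 ± 0.10 (adjusted p 0.161). Psmd10 (gankyrin) and Psmg1 had changes of -0.05 and -0.07 (adjusted p 0.763 and 0.804).

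On the probe sets used, none of the 17 subunits of the 19S particle was called in Dicer knockout against wild-type eggs, beside 11.3% of all genes. Their log2 changes ran from -0.15 to 0.30 with a median of 0.02, beside 0.25 for the 14 genes of the 20S core. At an unadjusted p under 0.05, 1 of them was higher and 1 lower, where 9.40% of all genes were higher and 14.3% lower, and 9 of the 17 had a change above 0. The difference between the particle and the core was not tested. Of the 6 ATPases, which unfold substrates, Psmc6 was at 9.60, 9.45 and 9.58 in Dicer knockout eggs and 9.35, 9.43 and 9.37 in wild-type eggs. Its groups did not overlap, and the change was 0.16 ± 0.07 (log2, SE; adjusted p 0.204). Psmc1 lay the other way, at 10.38, 10.26 and 10.28 in Dicer knockout eggs and 10.51, 10.43 and 10.43 in wild-type eggs, a change of -0.15 ± 0.07 (adjusted p 0.243). A second Psmc1 probe set gave -0.25 (adjusted p 0.00724 when every probe set was tested), and the mean of both was called lower (-0.20, adjusted p 0.0424). By number, the second set stands among those of chromosome 12, where Psmc1 lies, and the set used among those of chromosome 16. Psmc5, the ATPase gene with the highest mean signal, changed by -0.10 ± 0.05 (adjusted p 0.299), and Psmc2, Psmc3 and Psmc4 by 0.14, 0.05 and 0.12 (adjusted p 0.486, 0.872 and 0.669).

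In the rest of the base, Psmd1, the scaffold subunit, was at 10.97, 10.91 and 10.85 in Dicer knockout eggs and 10.97, 11.05 and 11.03 in wild-type eggs, a change of -0.11 ± 0.04 (log2, SE; adjusted p 0.166) that was called after quantile normalization (-0.17, adjusted p 0.0142). Psmd2, which docks shuttle proteins, changed by -0.08 ± 0.08 and Psmd4, a ubiquitin receptor, by 0.02 ± 0.06 (adjusted p 0.646 and 0.925). Of the 8 lid genes, Psmd14, the deubiquitinase of the lid, changed by 0.12 ± 0.11 (adjusted p 0.566) and Psmd12, which had the highest mean signal, by -0.03 ± 0.04 (adjusted p 0.744). Psmd11 changed by 0.12 ± 0.08 (adjusted p 0.448). Psmd13 was at 5.72, 5.79 and 5.05 in Dicer knockout eggs, 5.18, 5.11 and 5.07 in Dgcr8 knockout eggs and 5.29, 5.10 and 5.28 in wild-type eggs. Dicer knockout replicates 1 and 2 were the highest of the 9 arrays and replicate 3 the lowest, and the change of 0.30 ± 0.17 (adjusted p 0.339) became 0.53 (adjusted p 0.00666) without it. The other lid genes, Psmd3, Psmd6, Psmd7 and Psmd8, had changes between -0.14 and 0.02.

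Across arrays, the core genes differed from the wild-type mean by a median of 0.33, 0.24 and 0.23 (log2) on Dicer knockout replicates 1, 2 and 3, by -0.18, -0.09 and 0.01 on the Dgcr8 knockout arrays and by 0.02, 0.07 and -0.09 on the wild-type arrays. For the 19S genes the same medians were 0.05, -0.01 and -0.08 on the Dicer knockout arrays, -0.02, -0.05 and 0.03 on the Dgcr8 knockout arrays and 0.03, 0.01 and -0.03 on the wild-type arrays. Single arrays carried part of the spread within groups. Dicer knockout replicate 1 was the highest of its group in 7 of 14 core genes and 13 of 17 19S genes, Dgcr8 knockout replicate 3 was the highest of its group in 10 of 14 core genes, and wild-type replicate 3 was the lowest of its group in 9 of 14 core genes. Without wild-type replicate 3, 4 proteasome genes were called higher in Dicer knockout eggs in place of 9, and 2 of the core in place of 7. Without Dicer knockout replicate 1 these counts were 5 and 3. The median change of the core was 0.26 without the wild-type array and 0.28 without the Dicer knockout array.

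**Figure D3:**
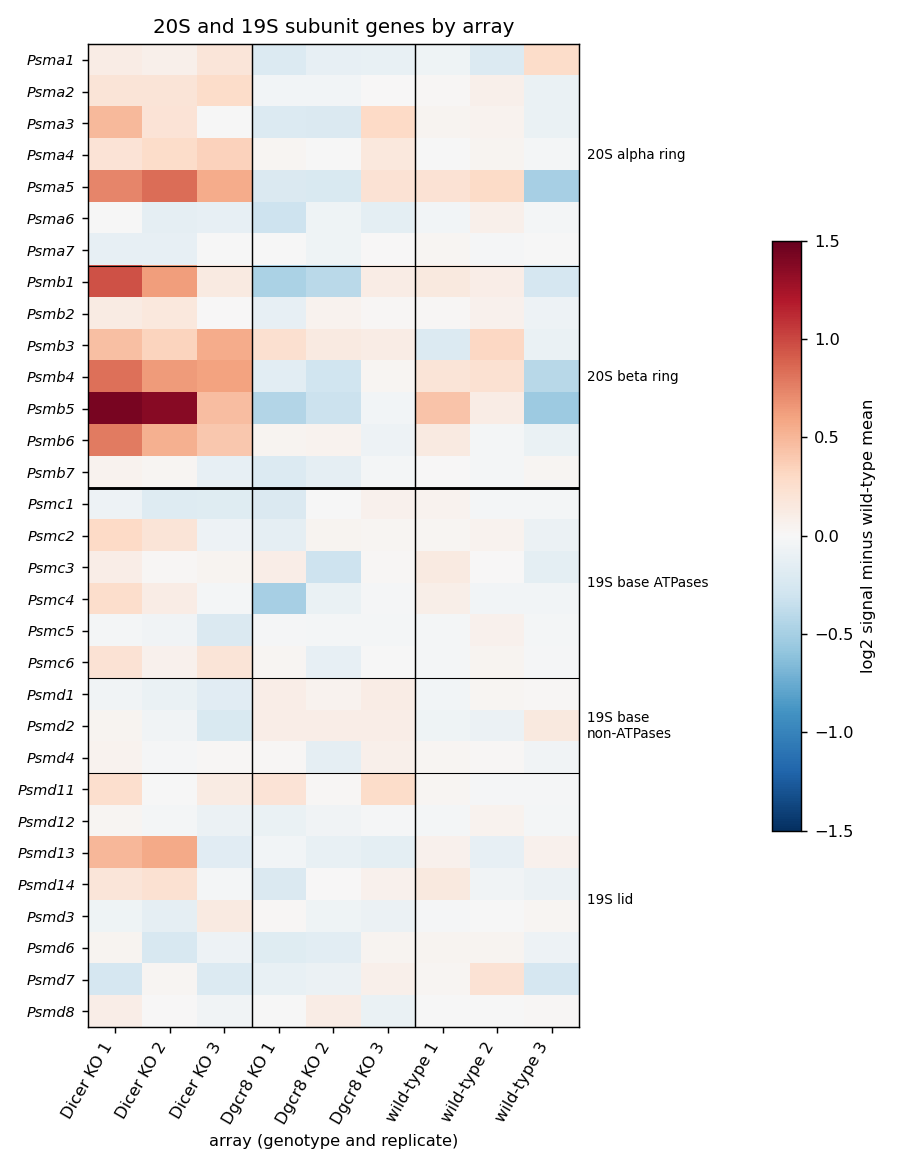
Log2 signal minus the wild-type mean of each gene for the 14 genes of the 20S core (above the thick line) and the 17 of the 19S particle (below it), in rows, on the 9 arrays, in columns. Red is above and blue below the wild-type mean; the Dicer knockout columns are red in most beta ring rows, most strongly for Psmb5, while the 19S rows are pale apart from Psmd13 on Dicer KO 1 and 2 and Psmc4 on Dgcr8 KO 1, and wild-type 3 is blue in Psma5, Psmb4 and Psmb5.

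The subunits of specialised proteasomes were not called in any comparison. The interferon-inducible beta subunits Psmb8, Psmb9 and Psmb10, which replace catalytic subunits in the immunoproteasome, ran from 4.78 to 5.35, from 6.20 to 6.64 and from 5.22 to 5.52 (log2) over the 9 arrays, with changes in Dicer knockout eggs of -0.07, -0.13 and 0.08 (adjusted p 0.800, 0.539 and 0.637). Psmb11, the thymus-specific beta subunit, ran from 5.18 to 5.61 with a change of -0.16 (adjusted p 0.413). In RefSeq, Psmb11 is the coding gene next to Psmb5 on chromosome 14, with 0 coding genes between them. Psma8, the alpha subunit of the testis proteasome, ran from 3.79 to 4.62 with a change of 0.11 (adjusted p 0.819). The files give no detection call, so whether these 5 genes stood above background was not tested.

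Activators cap the core in place of the 19S particle. Psme2, a subunit of the activator induced by interferon gamma, was at 9.65, 7.48 and 7.76 in Dicer knockout eggs, 7.18, 6.49 and 8.15 in Dgcr8 knockout eggs and 6.66, 7.48 and 6.45 in wild-type eggs. A single Dicer knockout array, replicate 1, stood well above all others, and the remaining ones overlapped. The change was the largest of all members, 1.43 ± 0.57 (log2, SE; 95% interval 0.16 to 2.71), and did not pass (adjusted p 0.156). A probe set annotated to both Psme2b and Psme2, left out by the rule, gave 1.50 (adjusted p 0.132). Psme1, the partner subunit, which lies near Psme2 on chromosome 14 with 1 coding gene between them, averaged 6.45 ± 0.26 in Dicer knockout and 6.53 ± 0.10 in wild-type eggs (SD, n = 3 each; adjusted p 0.821). Psme3, the nuclear activator, changed by -0.06 ± 0.04 (adjusted p 0.353) and was called lower after quantile normalization (-0.14, adjusted p 0.0275). Psme4, an activator linked to histone degradation in spermatogenesis, changed by -0.04 ± 0.08 (adjusted p 0.870), and Psmf1, which inhibits the core in vitro, by 0.06 ± 0.06 (adjusted p 0.579).

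A pair of genes fit the rule by spelling and is not part of the proteasome. Psmc3ip, which promotes strand exchange in meiotic recombination, was at 8.94, 9.18 and 8.49 in Dicer knockout eggs, 8.81, 9.01 and 9.04 in Dgcr8 knockout eggs and 9.23, 9.24 and 9.20 in wild-type eggs. Both knockouts lay below the tight wild-type group, and neither change passed (Dicer knockout -0.35 ± 0.15, adjusted p 0.183, but -0.51 and 0.0343 without replicate 2; Dgcr8 knockout -0.27, adjusted p 1). Psme3ip1, which binds Psme3, was at 10.66, 10.64 and 10.63 in Dicer knockout eggs and 10.46, 10.55 and 10.49 in wild-type eggs, a change of 0.14 ± 0.05 (log2, SE; adjusted p 0.0933). Neither is among the 9 genes called against wild-type.

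Dgcr8 knockout eggs were set against wild-type eggs to ask what follows when microRNAs are lost but Dicer is present. No proteasome gene was called higher or lower, and every adjusted p was 1 (limma). Over all genes 0.0231% were called, or 4 of 17324, so a count of 0 among 49 has little to be read against. At an unadjusted p under 0.05, 1 member was lower, the alpha subunit Psma6 (-0.17, 95% interval -0.33 to -0.02), and 0 were higher, beside 2.64% of all genes in either direction. The groups did not overlap in 3 members, higher in Psmd1 and lower in Psma6 and Psmc3ip, beside 6.54% of all genes. The log2 change was above 0 in 15 of the 49, where it was above 0 in 48.7% of all genes, and its median was -0.03. For the genes called in Dicer knockout eggs, the Dgcr8 knockout changes were 0.01 for Psmb6 (95% interval -0.21 to 0.22), 0.07 for Psmd9 (-0.15 to 0.28), -0.11 for Psmg4 (-0.30 to 0.09), -0.02 for Psma2 (-0.13 to 0.09) and 0.06 for Psma4 (-0.07 to 0.19). The intervals were wider for Psmb5 (-0.26, -0.90 to 0.37), Psma5 (-0.08, -0.51 to 0.36), Psmb4 (-0.14, -0.49 to 0.21) and Psmb3 (0.16, -0.12 to 0.44). Both comparisons use the same wild-type arrays, so their values are not independent. The difference between the knockouts was tested directly.

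In Dicer knockout against Dgcr8 knockout eggs, 10 genes of the symbol rule were called higher (5.48% of all genes were) and 1 lower (7.92% of all genes were). Those called higher were Psma2 (0.25), Psma4 (0.21), Psma5 (0.79), Psmb1 (0.83), Psmb4 (0.83), Psmb5 (1.35), Psmb6 (0.57), Psmd9 (0.42), Psmg4 (0.53) and Psme3ip1 (0.17). Their limma adjusted p ran from 0.00291 for Psmg4 to 0.0446 for Psme3ip1, which fits the rule by spelling only and is not part of the proteasome. All Dicer knockout arrays lay above all Dgcr8 knockout arrays in 14 members, beside 10.2% of all genes, and below them in 3, beside 15.9% of all genes. Psmb3 was not called (0.28, adjusted p 0.187), although its arrays were apart. The gene called lower was Psmd1, at 10.97, 10.91 and 10.85 in Dicer knockout eggs and 11.11, 11.07 and 11.12 in Dgcr8 knockout eggs, a change of -0.19 ± 0.04 (log2, SE; adjusted p 0.0156).

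Psmb1, which was not called against wild-type eggs, was called between the knockouts, with 9.15, 8.81 and 8.33 in Dicer knockout eggs and 7.71, 7.79 and 8.31 in Dgcr8 knockout eggs. Replicate 3 of both groups came within 0.02 of each other while the remaining arrays lay far apart, and the change of 0.83 ± 0.22 (log2, SE; adjusted p 0.0331) was lost without replicate 1 or 2 of either knockout (adjusted p 0.0775 to 0.117), with median centring (0.0603) and in a fit of only the 2 knockouts (0.0677). The calls for Psma2, Psmb4, Psmb6 and Psmg4 did not depend on any single array. The call for Psmb5 was lost without Dicer knockout replicate 1 (adjusted p 0.0508). That for Psmd9 was lost without Dicer knockout replicate 3 or Dgcr8 knockout replicate 2 or 3 (adjusted p 0.0528 to 0.0631). Psmd1 lost its call without Dgcr8 knockout replicate 1 (0.0563) or 3 (0.0508). It also lost it with median centring (0.0655) or eBayes without trend and robust settings (0.0728). Psma5 lost its call without replicate 1 or 2 of either knockout (0.0706 to 0.0905). Psma4 was lost without any array other than Dgcr8 knockout replicate 3 or Dicer knockout replicate 1 (0.0559 to 0.123), and Psme3ip1 without any array other than Dgcr8 knockout replicate 3 (0.0631 to 0.142). Both were also lost with quantile normalization, median centring, eBayes without trend and robust settings and only the 2 knockouts in the fit (0.089 to 0.176). In count, 7 of the 14 core genes were called higher here, where 5.48% of all genes were. Of the 17 19S genes 0 were called higher and 1 lower, where 7.92% of all genes were called lower. The medians were 0.27 for the core and 0.02 for the 19S genes.

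Other genes of the pathway (a 19S subunit outside the symbol rule, core maturation, deubiquitinases, ubiquitin shuttles, Vcp cofactors, ligases and transcription factors) were followed as a list of 29 measured genes, 28 of them tested. In Dicer knockout against wild-type eggs 3 were called higher and 2 lower, beside the 4.87% and 6.47% of all genes, and the median change was -0.00051. Sem1, a small lid subunit of the 19S particle, was at 10.67, 10.61 and 10.19 in Dicer knockout eggs, 8.72, 8.63 and 9.15 in Dgcr8 knockout eggs and 9.45, 9.48 and 8.52 in wild-type eggs. Dicer knockout arrays lay well above both groups, and wild-type replicate 3 was again the lowest of its group. The change from wild-type was 1.34 ± 0.25 (log2, SE, 2.53-fold, adjusted p 0.00669). RNA of this subunit was thus called higher, though on the probe sets used none of the 17 named Psmc or Psmd was called. Sqstm1, an autophagy receptor for ubiquitin-tagged cargo, was at 8.63, 8.37 and 8.17 in Dicer knockout eggs and 7.57, 7.69 and 7.40 in wild-type eggs, groups that stood apart by 0.84 ± 0.13 (log2, SE; adjusted p 0.00224). Stub1, a ubiquitin ligase that works with heat shock proteins, was at 8.24, 8.41 and 7.99 in Dicer knockout eggs and 7.50, 7.82 and 7.56 in wild-type eggs. Its change of 0.59 ± 0.14 (adjusted p 0.0235) was lost without replicate 1 or 2 of the Dicer knockout or 1 or 3 of wild-type (adjusted p 0.0662 to 0.0893).

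The pair called lower was Ubqln2 and Nfe2l1. Ubqln2, which shuttles ubiquitin-tagged proteins to the proteasome, was at 9.85, 9.83 and 9.76 in Dicer knockout eggs and 10.23, 10.20 and 10.09 in wild-type eggs, a change of -0.36 ± 0.05 (log2, SE; adjusted p 0.00204) between groups that did not overlap. Nfe2l1, the transcription factor named with the promoters, was at 10.61, 10.68 and 10.47 in Dicer knockout eggs, 10.84, 10.85 and 10.86 in Dgcr8 knockout eggs and 10.85, 10.80 and 10.78 in wild-type eggs. Its Dicer knockout arrays were the lowest, by -0.22 ± 0.05 against wild-type (log2, SE; adjusted p 0.0278), and the call was lost without any wild-type array or Dicer knockout replicate 1 or 3 (adjusted p 0.0521 to 0.107), and with median centring, eBayes without trend and robust settings or only the 2 groups in the fit (0.0782 to 0.0895). Nfe2l1 protein was not measured, and a part of Nfe2l1 in the changes of the proteasome genes was not tested. Pomp, the maturation factor of the core, changed by -0.14 ± 0.07 (adjusted p 0.236), Usp14 and Uchl5, the deubiquitinases of the 19S particle, by 0.15 and -0.06 (adjusted p 0.197 and 0.645), and Vcp, the segregase upstream of the proteasome, by 0.00 (adjusted p 0.992). Ufd1, a Vcp cofactor, was at 8.46, 7.94 and 8.28 in Dicer knockout eggs, 7.61, 7.40 and 7.59 in Dgcr8 knockout eggs and 7.81, 7.66 and 7.90 in wild-type eggs. The change from wild-type was 0.44 ± 0.13 (adjusted p 0.0665, and 0.0112 without Dicer knockout replicate 2), and Ufd1 was called against Dgcr8 knockout eggs (0.69, adjusted p 0.00753). Against Dgcr8 knockout eggs 4 genes of the list were called higher and 2 lower, namely Sem1 (1.66), Sqstm1 (0.82), Ufd1 and Stub1 (0.58) higher, the last lost without replicate 1 or 2 of the Dicer knockout or 1 or 3 of the Dgcr8 knockout (adjusted p 0.057 to 0.0798), and Ubqln2 (-0.27) and Nfe2l1 (-0.26) lower. Against wild-type eggs none of the 28 was called in Dgcr8 knockout eggs, and 1 was lower at an unadjusted p under 0.05. The remaining tested genes of the list were called in none of the 3 comparisons.

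**Figure D4:**
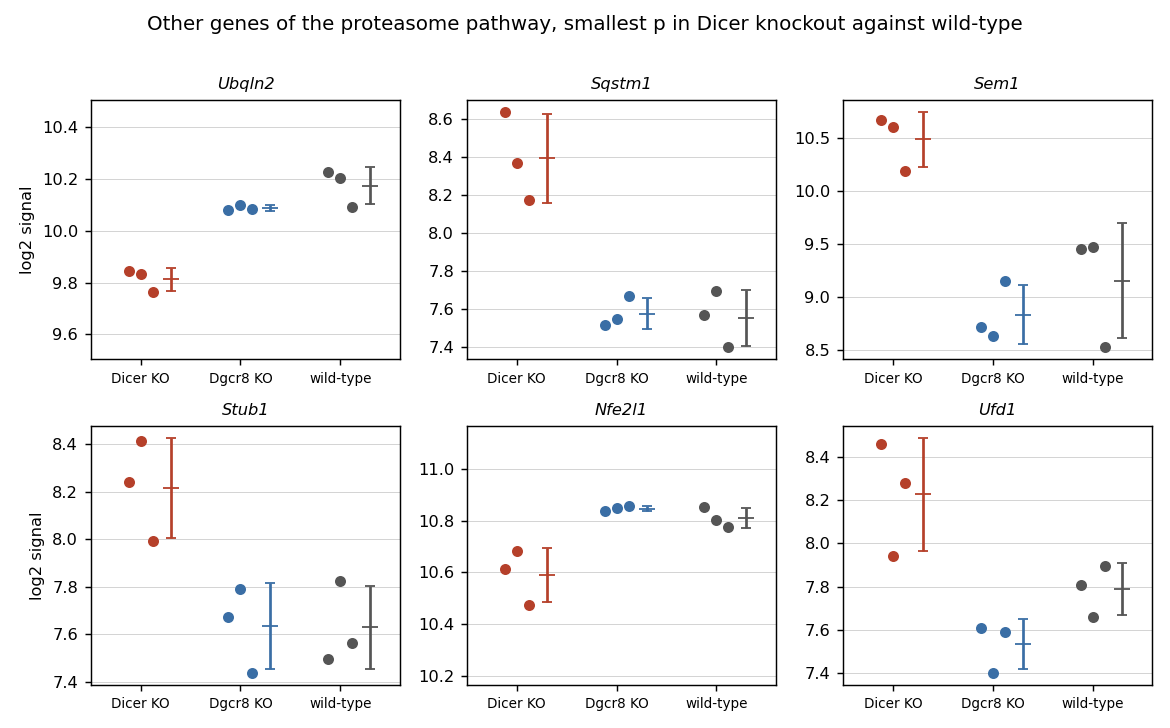
Log2 signal on each array for the 6 other genes of the proteasome pathway with the smallest unadjusted p in Dicer knockout against wild-type eggs. Points are the 3 arrays of a genotype in replicate order, bars the mean ± SD, and each panel has its own axis; Sem1, Sqstm1, Stub1 and Ufd1 lie higher and Ubqln2 and Nfe2l1 lower in Dicer knockout eggs, of which Ufd1 did not pass the test against wild-type.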

How the data were processed

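RNA of 9 samples of metaphase II mouse eggs (3 Dicer knockout, 3 Dgcr8 knockout, 3 wild-type) was measured on arrays. The deposited log2 values, 1 signal per probe set and array, were made with GCRMA per the submitters' processing notes, a method that corrects background, normalizes between arrays and summarises probes; its version and settings are not stated in the labels. No normalization was added. Of 35557 probe sets, 21789 have 1 gene symbol in the platform annotation, 1621 have several and 12147 none, and 21698 matched a RefSeq gene. Each of 19938 genes took its probe set of highest mean; 17324 with a log2 signal of at least 4 on at least 3 arrays were tested with limma 3.58.1 in R 4.3.3 (lmFit and eBayes, trend and robust, with statmod 1.5.0) on all 9 arrays, two-sided, called at a Benjamini-Hochberg adjusted p under 0.05. The fit was tested on simulated data. Precision is set by the number of arrays, with 95% intervals that reached a median of 0.225 (log2) to either side over all genes and 0.202 over proteasome genes.

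Genes named are every called member, Psmb6 and Psmd9, the 2 members of each role with the smallest p and that with the highest mean, the specialised subunits, Psme1, Psme2, Psmc3ip, and the 6 other pathway genes with the smallest p, Nfe2l1 among them; other members are named to account for all, and Pomp, Usp14, Uchl5, Vcp and the markers of other cells for their roles, after their values were seen. The members, lists and tests were chosen with earlier results of these data known. Alternatives changed the filter, scaling, probe set, eBayes settings, arrays in the fit, array weights, threshold and a block on the replicate number, and left out each array in turn; counts over the core and the 19S particle under these were added after seeing the data.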

Additional observations from a re-analysis of the deposited data

How the results depend on the processing

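No called log2 change of a proteasome gene, another gene of the pathway list, Dgcr8 or Dicer1 turned its sign under any alternative that was run. The signs of all other genes were not followed. In Dicer knockout against wild-type eggs 1964 genes were called in all. Of the proteasome genes 9 were called higher and 0 lower, with 7 of the core higher and 0 of the 19S particle. Quantile normalization called 2467 genes in all, with 6 proteasome genes higher and 3 lower. It called 4 of the core higher and 1 of the 19S particle, and gave a median of 0.0265 in place of 0.0843. Median centring called 5 higher and 3 of the core, with 1584 genes called in all. The mean of probe sets called 1 lower, a 19S gene. eBayes without trend and robust settings called 4 of the core. A fit of only the 2 groups compared called 5 higher and 3 of the core. At an adjusted p under 0.01, 981 of all genes (1964 in the main analysis), 2 proteasome genes higher and 1 of the core were called. Leaving out each array in turn gave 1238 to 1966 genes in all and 4 to 9 proteasome genes higher (4 without wild-type replicate 3). It gave 0 to 1 lower, 2 to 6 of the core and 0 to 1 of the 19S particle. The 1 lower, without Dicer knockout replicate 2, was Psmc3ip, which fits the rule by spelling only. In Dgcr8 knockout against wild-type eggs 4 genes were called, 2 with only these groups in the fit and 2 to 4 without an array, with 0 proteasome genes each time. In Dicer knockout against Dgcr8 knockout eggs 2321 genes were called in all, with 10 genes of the symbol rule higher (Psme3ip1 among them) and 1 lower. Quantile normalization called 2879 genes in all, with 8 proteasome genes higher and 2 lower, and a median of 0.0217 in place of 0.0854. Median centring called 0 lower, and so did eBayes without trend and robust settings. An adjusted p under 0.01 gave 1127 genes in all, with 4 proteasome genes higher and 0 lower. Without an array the ranges were 1515 to 2253, 5 to 9 and 0 to 1. The causes were not tested. With a replicate block, 7 proteasome genes were called higher against wild-type (1797 genes in all) and 7 against Dgcr8 knockout eggs; deviations from the group means correlated at -0.235 to 0.112 between arrays of the same number and only 2 of 9 arrays correlated best with their own number, so the numbers were not used to pair arrays. The block ended the calls of Psma5 and Psmb3 against wild-type and of Psma4, Psmb1 and Psme3ip1 against Dgcr8 knockout eggs, and Ufd1 was called against wild-type with it (adjusted p 0.031). Arrays have no counts, so the 3 arrays per group limit the smallest change that can be called.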
